A study of Sus scrofa with 19 samples.

Results

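Maternal LPS was set against maternal saline in the male offspring of sows fed the control diet, by array measurement of the whole adrenal gland. The comparison held 6 of the 19 piglets of the study, chosen by their labelled maternal diet: 3 whose dams had received LPS (piglets 6, 16 and 17) and 3 whose dams had received saline (piglets 8, 14 and 21). LPS, lipopolysaccharide, is the cell wall component of Gram-negative bacteria used to provoke inflammation. The sows ate their experimental diet from gestation day 75 and were given LPS or saline on gestation day 112, and the piglets were weaned at 21 days. Each piglet, in both maternal groups, was itself given LPS at 28 days and killed 2 hours later, so both groups carried an acute challenge and no gland of an unchallenged piglet was measured. The other 13 piglets came from sows fed fish oil (4 after maternal LPS, 4 after saline) or microalgae (2 after LPS, 3 after saline) and were used for the estimate of the spread and for the comparison between diets. Each piglet came from a different sow, so the spread between piglets is also a spread between litters. The question asked was whether an immune challenge of the dam late in pregnancy altered the adrenal transcriptome of the offspring after their own challenge.

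The adrenal gland consists of a cortex, which makes cortisol and aldosterone from cholesterol, and a medulla, whose chromaffin cells make adrenaline and noradrenaline. LPS is bound by CD14 and by the complex of LY96 and TLR4 on macrophages and other cells, which leads through NF-kB to cytokines such as TNF and IL6. Circulating cytokines drive the hypothalamus, the pituitary and the adrenal cortex, and the cortisol that results restrains inflammation. Inflammation of the dam before birth is studied as one of the exposures that can set the later reactivity of this axis.

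The 6 arrays held 27558 probe sets as deposited log2 signals, and 20668 lay above the lowest 25% by mean over all 19 arrays, a level of 3.23. The glands carried genes of both adrenal tissues: all 11 steroid synthesis genes with a probe set passed this filter, as did 14 of 15 medulla genes. The array of piglet 6 stood apart from the rest of its group. Its interquartile range was 2.39 log2, against 2.52 to 2.58 in the other 5 control diet piglets, and its median correlation with the other arrays was 0.944, against 0.958 to 0.966. The 5 pairs that included piglet 6 correlated at 0.935 to 0.953 and the 10 pairs without it at 0.955 to 0.976. Pairs from opposite maternal groups correlated at 0.940 to 0.976, pairs within saline at 0.955 to 0.972 and pairs within LPS at 0.935 to 0.971, so the ranges overlapped. These correlations are across probe sets, which are not independent replicates. Results are therefore given with and without piglet 6 where it moves them.

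No probe set passed an adjusted p of 0.05 for maternal LPS against saline, 0 of 20668 (0%) by limma with Benjamini-Hochberg adjustment. The smallest adjusted p was 0.9999. At an unadjusted p under 0.05, 203 probe sets were higher after maternal LPS (0.982%) and 156 were lower (0.755%), and 53 had a p under 0.01. Together 1.74% had an unadjusted p under 0.05 in limma and 0.256% under 0.01, fewer than evenly spread p values would give. Differences above 0 made up 50.3% of the probe sets and differences below 0 made up 49.7%. The values of the 3 LPS piglets lay wholly above those of the 3 saline piglets for 633 probe sets (3.06%) and wholly below for 603 (2.92%). The median absolute difference was 0.12 log2, with a median standard error (SE) of 0.213, and 51 probe sets differed by more than 1. A p above the threshold does not show that the glands were alike, and the small number of arrays limits the precision, so 95% confidence intervals are given for the main genes below.

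**Figure D1:**
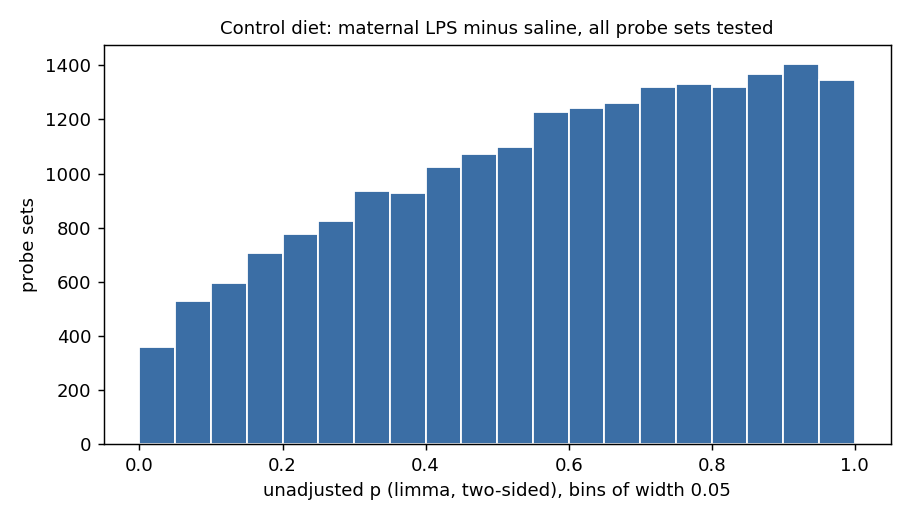
Number of probe sets (vertical axis) by unadjusted p from limma (horizontal axis, bins of width 0.05) for maternal LPS minus saline in the control diet, over all 20668 probe sets tested. The count is lowest in the first bin, at 359, and reaches 1345 in the last.

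GP91-PHOX and SRSF12 had the largest positive differences among genes with a symbol at an unadjusted p under 0.01 in limma. None of the genes described here passed the adjusted threshold; they are the 10 largest differences in this direction at an unadjusted p under 0.01 among the 13 gene symbols that met it. GP91-PHOX, the catalytic subunit of the phagocyte NADPH oxidase, measured 3.81, 4.4 and 3.75 log2 in saline piglets 8, 14 and 21, and 5.06, 4.87 and 4.54 in LPS piglets 6, 16 and 17. Every LPS piglet lay above every saline piglet, the nearest pair being 14 and 17. The means were 3.99 ± 0.36 after saline and 4.82 ± 0.26 after LPS (SD, 3 piglets each). The difference of 0.83 (95% interval 0.41 to 1.26, a 1.78-fold higher signal) had an unadjusted p of 0.000634 in limma, and it was 0.72 without piglet 6. In the other 13 piglets of the study the gene ranged from 4.19 to 4.93 with a median of 4.53, so that 2 of the 3 saline piglets of the control diet lay below all of them and 1 LPS piglet above.

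KRT18, a keratin of simple epithelia, measured 3.81, 4.10 and 4.27 in the saline piglets and 4.47, 4.94 and 4.83 in the LPS piglets. These groups did not overlap either, with piglet 6 the lowest of the LPS group. The difference was 0.69 (95% interval 0.32 to 1.05, unadjusted p = 0.00102 in limma), and 0.83 without piglet 6. In the other 13 piglets KRT18 ranged from 4.32 to 4.83. All 3 saline piglets of the control diet lay below that range, and LPS piglets 16 and 17 lay at its top or above. SRSF12, a member of the splicing factor family rich in serine and arginine, measured 3.86, 3.81 and 3.80 after saline and 4.31, 4.84 and 4.83 after LPS. The saline piglets were nearly equal, and all LPS piglets lay above them, piglet 6 the least, with a difference of 0.83 (95% interval 0.32 to 1.35) that was 1.01 without that piglet. The other 13 piglets ranged from 3.69 to 4.66, a range that held the saline piglets and piglet 6. The pro-apoptotic gene BCL2L11, which encodes BIM, measured 3.0, 3.27 and 3.26 after saline and 3.67, 3.88 and 3.72 after LPS, a difference of 0.58. Its saline mean lay under the filter level, where a difference is less certain. In the other 13 piglets BCL2L11 ranged from 3.37 to 4.08, so all 3 saline piglets lay below them and the LPS piglets within.

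The other 6 genes in this direction differed by 0.57 to 0.74. They were NAIF1, which induces apoptosis from the nucleus (0.74), RPRM, a cell cycle arrest gene downstream of p53 (0.65), BHLHA9, a transcription factor of limb development (0.61), LONRF2, a RING finger protein (0.60), RMDN3, a tether between mitochondria and the endoplasmic reticulum (0.58), and ITGA4, the alpha 4 integrin chain of leukocytes (0.57). All except RPRM had groups that did not overlap. The saline mean of ITGA4 also lay under the filter level. Without piglet 6 each of the 6 kept its direction, and RMDN3 came to 0.43.

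Only 9 gene symbols met the same rule in the other direction, and again none passed the adjusted threshold. CHST9, a sulfotransferase that acts on N-acetylgalactosamine, had the largest difference. It measured 5.91, 6.52 and 6.61 in the saline piglets and 3.23, 3.37 and 5.12 in the LPS piglets. Piglets 6 and 16 lay far below the rest and piglet 17 between them and the saline group. The difference was -2.44 (95% interval -3.89 to -0.99, unadjusted p = 0.00241 in limma), and -2.10 without piglet 6. The gene also varied widely in the other 13 piglets, from 3.37 to 7.34, a range that held all 3 saline piglets and 2 of the 3 LPS piglets of the control diet.

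SLA-DRB1, a beta chain of pig MHC class II that presents peptides to helper T cells, measured 5.52, 5.82 and 6.66 after saline and 5.32, 5.01 and 5.12 after LPS. Its groups did not overlap, and piglet 21 was highest. The difference was -0.85 (95% interval -1.40 to -0.30, unadjusted p = 0.00462 in limma), and -0.94 without piglet 6. Class II genes are highly alike and differ between animals, so that probe set can also reflect related genes or alleles. FAH, which catalyses the last step of tyrosine breakdown, measured 7.71, 8.19 and 8.07 after saline and 7.72, 7.22 and 7.05 after LPS. Piglet 6 lay at the level of saline piglet 8 and the other LPS piglets below all of the saline group; the difference was -0.66, and -0.85 without piglet 6.

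The remaining 6 genes differed by -0.63 to -0.46, with no overlap between the groups. They were RAD51B of homologous recombination (-0.63), TRIM39, a ubiquitin ligase (-0.63), the secreted matrix protein SBSPON (-0.60), the membrane protein TMEM98 (-0.60), the deubiquitinase USP21 (-0.56) and SLC37A1, a sugar phosphate exchanger (-0.46). RAD51B was the most dependent on piglet 6, at -0.36 without it. A second probe set of TRIM39 gave -0.07. In all, 17 of these 19 genes had groups that did not overlap, all 19 kept their direction without piglet 6, and 16 then had an unadjusted p under 0.05. Members chosen by a small p have separated groups by that choice, so the 17 cannot be read against the 3.06% and 2.92% of all probe sets. The same choice favours a kept direction and a small p without piglet 6, because the other arrays are the same. Those counts of 19 and 16 are a description.

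**Figure D2:**
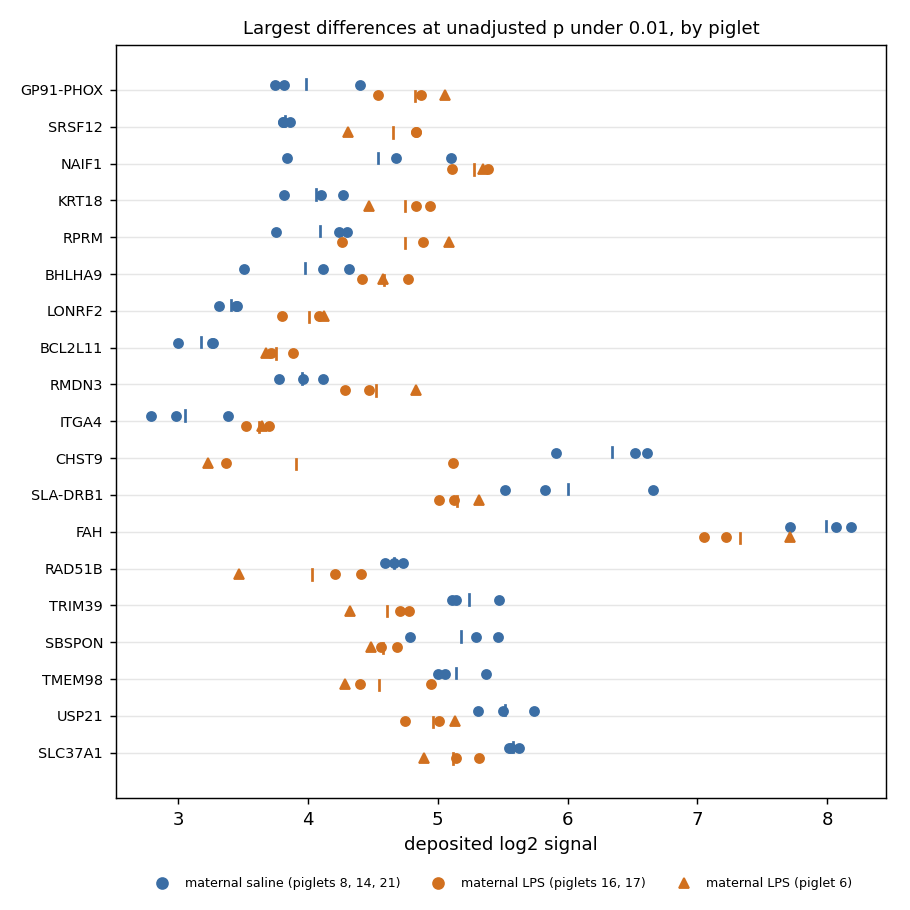
Deposited log2 signal (horizontal axis) of the 10 genes with the largest positive and the 9 with the largest negative differences at an unadjusted p under 0.01, for each control diet piglet. Circles and triangles are piglets, short bars are group means, and piglet 6 is drawn as a triangle; CHST9 shows the widest gap, with means 2.44 log2 apart.

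A pair of probe sets without a gene symbol had larger differences than the 19 genes above, and they were picked out after their values were seen. Probe set 15344727 measured 6.21, 5.54 and 7.54 after saline and 8.91, 9.02 and 9.89 after LPS, a difference of 2.84 (unadjusted p = 0.000217 in limma, the smallest of the comparison). The 13 piglets of the other diets lay between 8.02 and 10.64, so it was the 3 saline piglets of the control diet that stood below all 16 others. Probe set 15182853 measured 4.79, 3.61 and 3.70 after saline and 1.17, 1.33 and 1.90 after LPS. All 3 LPS piglets lay under the filter level and below the 13 other piglets, which ranged from 2.01 to 5.06, and the difference was -2.57.

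Of 19 macrophage genes measured, 18 had a positive difference, against 50.3% of all probe sets, with a median of 0.25 against 0.0016 over all. None passed the adjusted threshold. For 7 of the 19 the groups did not overlap, all of them higher after LPS, where 3.06% of all probe sets did this: MRC1, F13A1, VSIG4, MS4A7, MSR1, CTSS and CSF1R, of which all but MRC1 and F13A1 are named here after their values were seen. MRC1, the mannose receptor of tissue macrophages, measured 5.18, 4.79 and 5.44 after saline and 6.24, 5.70 and 5.69 after LPS. Piglet 6 was the highest, and the difference was 0.74 (95% interval 0.11 to 1.37) with it and 0.55 without it. F13A1, a coagulation factor subunit made by resident macrophages, measured 4.89, 5.07 and 4.81 after saline and 5.40, 5.18 and 6.02 after LPS, a difference of 0.61 (95% interval 0.11 to 1.11).

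Not all macrophage genes had such gaps. STAB1, MARCO and LGMN, named after their values were seen, differed by 0.05, 0.05 and 0.03, and SIGLEC1, a sialic acid receptor that interferon also induces, by -0.17. Without piglet 6 the median was 0.22 with 14 of the 19 positive, and without piglet 21 it was 0.12 with 16 positive. With piglet 6 left out, fibroblast (20 of 22), smooth muscle (10 of 11) and complement genes (11 of 14) were positive more often, as were outer cortex and capsule genes (10 of 13). Leaving out saline piglet 8 gave 0.41 with 17 positive. The means of the list per piglet, as deviations from the 6 piglets' mean, were 0.00, -0.18 and -0.23 after saline and 0.18, 0.06 and 0.18 after LPS, so the groups of list means did not overlap, though piglets 8 and 16 were close. In a whole gland, more cells of a type and more RNA per cell cannot be told apart.

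**Figure D3:**
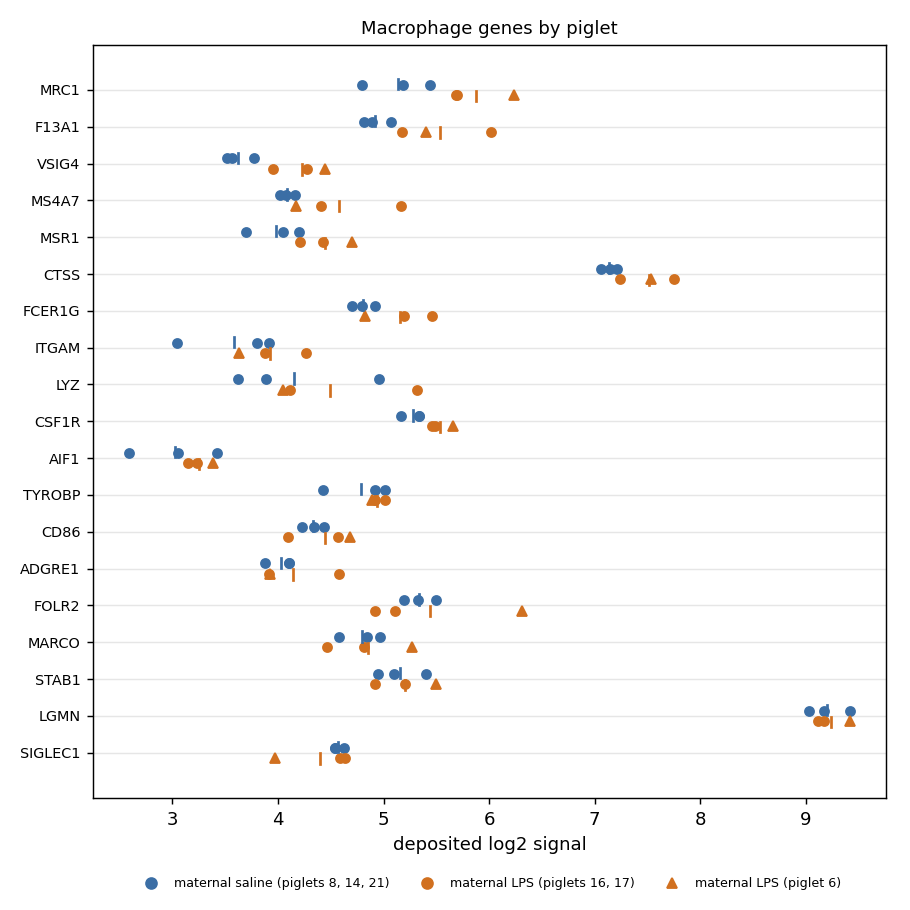
Deposited log2 signal (horizontal axis) of the 19 macrophage genes in each control diet piglet, ordered by difference; circles and triangles are piglets, short bars are group means, and piglet 6 is drawn as a triangle. The first 6 genes, MRC1 to CTSS, have all LPS piglets to the right of all saline piglets, and the last, SIGLEC1, has piglet 6 to the left.

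Complement genes, of which the C1q chains are made by macrophages, were positive for 12 of 14, with a median of 0.26. C1QA measured 7.20, 6.76 and 6.69 after saline and 7.43, 7.62 and 7.28 after LPS, without overlap, and C1QC 6.42, 6.14 and 6.27 against 6.68, 7.17 and 6.89, also without overlap. Those differences were 0.56 and 0.64, with unadjusted p = 0.104 and 0.106 in limma, and both genes are named after their values were seen. Without piglet 6 the list had 11 positive members and a median of 0.18, and without piglet 17 it had 8 and a median of 0.15; without piglet 8 all 14 were positive, with a median of 0.51.

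Among the receptors and adaptors that sense microbes, 11 of 22 were positive and the median was 0.00, or 14 and 0.10 without piglet 6. LY96, the LPS-binding partner of TLR4, measured 4.66, 4.11 and 3.62 after saline and 4.44, 5.03 and 4.77 after LPS. Piglet 8 lay above piglet 6, and the difference was 0.62 (95% interval 0.09 to 1.14), or 0.77 without piglet 6. TLR4 itself differed by 0.33 (95% interval -0.29 to 0.96) and CD14 by 0.39 (-0.11 to 0.88), both with overlapping groups.

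Of the leukocyte lists other than macrophages, neutrophil genes were positive for 6 of 11 (median 0.14), B lymphocyte genes for 6 of 7 (median 0.24) and T and NK lymphocyte genes for 6 of 17 (median -0.04, and 0.08 without piglet 8). CXCR2, the receptor by which neutrophils follow CXCL8, measured 3.80, 4.11 and 3.65 after saline and 4.09, 4.67 and 4.59 after LPS. Piglet 6 lay just below saline piglet 14, and the difference was 0.60, or 0.78 without piglet 6. TREM1, an amplifying receptor of neutrophils and monocytes, differed by 0.76 but had 3 group means under the filter level. NKG7, of cytotoxic granules, differed by 0.45, with groups that did not overlap. The B lymphocyte median was 0.07 without piglet 6, which was the highest of the 6 piglets for that list, with a mean of 0.34 above their average.

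IL6, CXCL8, TNF and IL10, cytokines of the acute response, had overlapping groups. Of 24 cytokine and chemokine genes 18 were positive, against 50.3% of all probe sets, with a median of 0.08. The median was 0.03 without piglet 17 and 0.13 without piglet 6. No member had an unadjusted p under 0.05 in limma, where 0.982% of all probe sets were higher and 0.755% lower. None among 24 genes lies near those shares. IL6, the main endocrine cytokine of the acute phase, measured 9.80, 10.50 and 10.88 after saline and 8.98, 11.13 and 11.13 after LPS. Piglet 6 was the lowest of all 6 and piglets 16 and 17 were the highest. The difference was 0.02, with a 95% interval of -1.27 to 1.30, and 0.73 without piglet 6 (unadjusted p = 0.224 in limma). CXCL8, which attracts neutrophils, measured 9.87, 10.33 and 10.89 after saline and 9.74, 10.84 and 10.90 after LPS, a difference of 0.13 (95% interval -0.69 to 0.95) that was 0.51 without piglet 6. TNF differed by 0.38 (-0.24 to 0.99) and the anti-inflammatory cytokine IL10 by 0.12 (-0.28 to 0.53), both with overlap.

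The inducible targets of NF-kB were positive for 9 of 19 genes with a median of -0.01, but for 14 with a median of 0.22 once piglet 6 was left out. Immediate early genes, the first transcription factors induced by a stimulus, were positive for 3 of 17 with a median of -0.02. Without piglet 21 that was 12 of 17 with a median of 0.13, and without piglet 14 it was 2 with a median of -0.30. FOS differed by -0.01 (95% interval -0.65 to 0.63). Interferon-stimulated genes, the antiviral programme, ran the other way from macrophage genes: 24 of 30 were lower after maternal LPS, against 49.7% of all probe sets, with a median of -0.16. None of the 30 passed an unadjusted p of 0.05 in limma, beside 0.982% of all probe sets higher and 0.755% lower. The list means per piglet were 0.16, 0.18 and -0.06 after saline and 0.03, -0.16 and -0.15 after LPS, where piglet 6 lay above saline piglet 21. Without piglet 6 the median was -0.20 with 27 lower, and without piglet 16 it was -0.11 with 21 lower.

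Antigen presentation genes of class I were lower for 9 of 12, with a median of -0.11, but the sign turned with 1 saline piglet: it was 0.03 without piglet 8 and -0.27 without piglet 6. Class II genes were lower for 6 of 10, with a median of -0.05, or 0.01 without piglet 21. Of the 10, 2 were lower at an unadjusted p under 0.05, SLA-DRB1 and SLA-DOB, where 0.755% of all probe sets were. SLA-DOB, which modulates peptide loading in B cells, measured 5.12, 4.95 and 5.54 after saline and 4.85, 4.30 and 3.87 after LPS, without overlap. Its difference was -0.87 (95% interval -1.64 to -0.10) and -1.12 without piglet 6. SLA-DRA, the alpha chain that pairs with DRB1, differed by -0.08, and SLA-DQA1 and SLA-DQB1 by 0.07 and -0.02, all named after their values were seen.

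The 4 preset genes of the cortex differed by -0.08 to 0.08 log2. CYP17A1, which commits steroids to the cortisol route, measured 11.88, 12.50 and 12.31 after saline and 12.27, 12.49 and 12.18 after LPS. Its groups overlapped fully, and the difference was 0.08 with a 95% interval of -0.29 to 0.45. CYP21A2 of cortisol and aldosterone synthesis differed by -0.07 (95% interval -0.45 to 0.31). HSD3B1, which makes progesterone from pregnenolone, differed by -0.06 (-0.60 to 0.47). SCARB1, the receptor for cholesterol from high density lipoprotein, differed by -0.08 (-0.61 to 0.45), and by -0.13 in a second probe set. Steroid synthesis as a list was positive for 5 of 11 genes with a median of -0.02, or 7 and 0.09 without piglet 6. The 11 genes did not include STAR, CYP11A1 or CYP11B1, so the list did not cover the whole route to cortisol. The largest difference in the list, -0.57 for CYB5A, a cofactor of CYP17A1, had a 95% interval of -2.98 to 1.84. FDXR, the reductase that supplies electrons to mitochondrial steroid enzymes, differed by -0.32, and by -0.54 without piglet 6; both genes are named after their values were seen. LIPE, the lipase that frees stored cholesterol esters, was the only member of the 11 at an unadjusted p under 0.05 in limma. Of all probe sets, 0.982% were higher at that p. LIPE measured 3.65, 3.36 and 3.07 after saline and 3.69, 4.23 and 3.57 after LPS, with overlap and a difference of 0.47. Its saline mean of 3.36 lay close to the filter level of 3.23.

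Genes of glucocorticoid action had a median of 0.01, with 7 of 13 positive. The glucocorticoid receptor NR3C1 differed by 0.09 (95% interval -0.42 to 0.59), its induced target FKBP5 by 0.22 (-0.29 to 0.74), and HSD11B2, which inactivates cortisol, by -0.01 (-0.54 to 0.51). Across the 16 adrenal and inflammatory genes always described, DBH and PNMT included, none had an unadjusted p under 0.05, all 16 had overlapping groups, and the differences ran from -0.83 to 0.39. Over all probe sets, 0.982% were higher and 0.755% lower at that p by limma. Groups did not overlap for 3.06% (higher) and 2.92% (lower) of all probe sets. None among 16 genes lies near those shares. For 13 of the 16 the 95% interval lay within 1 log2 of 0.

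The medulla differed more between piglets than between groups. PNMT, which converts noradrenaline to adrenaline, measured 7.68, 7.71 and 7.52 after saline and 7.71, 5.44 and 7.25 after LPS. Piglet 16 was alone at the low end and piglet 6 was level with the saline group. The difference was -0.83 (95% interval -2.00 to 0.33), and -1.29 without piglet 6 (unadjusted p = 0.0403 in limma). DBH, which makes noradrenaline, showed the same low piglet, at 6.88, 6.71 and 7.05 after saline and 7.51, 5.50 and 6.61 after LPS, a difference of -0.34. The medulla list had a mean deviation of -0.90 in piglet 16, against 0.39 and 0.14 in piglets 6 and 17 and -0.14 to 0.44 in the saline piglets. Its median difference was -0.04 with 5 of 14 positive, and -0.26 with 1 positive without piglet 6. Without piglet 16 it was 0.34 with 9 positive.

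CARTPT, a neuropeptide of chromaffin cells and nerves, was the medulla gene with the smallest p. It measured 5.67, 4.14 and 7.85 after saline and 3.81, 2.93 and 4.22 after LPS. Saline piglet 14 overlapped with LPS piglet 17 and saline piglet 21 was far above the rest. The difference was -2.23 (95% interval -4.24 to -0.23), -1.25 without piglet 21 and -1.97 with the medulla score of each array as a covariate (unadjusted p = 0.0506 in limma). Across the other diets the gene ranged from 3.62 to 7.59. CARTPT, PNMT and DBH all belong to the medulla list, so a score from that list may adjust CARTPT partly for itself. The part of medulla genes as a whole in the difference of CARTPT was not tested beyond that covariate.

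Genes of the outer cortex and capsule gave a median of 0.04 with 7 of 13 positive, which was 0.19 with 10 positive without piglet 6 and -0.13 with 3 positive without piglet 17. DLK1, a surface protein of adrenal progenitor and outer cortical cells, measured 4.38, 4.87 and 4.30 after saline and 4.22, 6.03 and 7.0 after LPS. Piglets 16 and 17 stood above all saline piglets and piglet 6 below them. The difference was 1.23 (95% interval 0.10 to 2.36), 2.00 without piglet 6 and 0.61 without piglet 17, and the other 13 piglets ranged from 3.90 to 6.0.

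The sign of the connective tissue list turned with single piglets. The fibroblast and matrix list had means per piglet of 0.61, 0.11 and -0.51 after saline and -0.94, 0.31 and 0.41 after LPS, so that the lowest and the second highest piglets both belonged to the LPS group. Its median was -0.04 with 8 of 22 positive, and turned to 0.25 with 20 positive without piglet 6 and to 0.23 with 16 positive without saline piglet 8. Without piglet 21 it was -0.35. DCN, the matrix proteoglycan decorin, named after its values were seen, measured 8.30, 8.12 and 6.97 after saline and 4.42, 7.81 and 8.49 after LPS, with piglet 6 far below the rest. POSTN, the matrix protein periostin, had a difference of -2.04 (95% interval -3.69 to -0.38). It measured 8.16, 7.41 and 7.16 after saline and 4.80, 7.54 and 4.29 after LPS, so piglets 6 and 17 were low and piglet 16 was among the saline values; the difference was -1.66 without piglet 6, -1.41 without piglet 17 and -3.03 without piglet 16 (unadjusted p = 0.0761, 0.111 and 0.00062 in limma).

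Cholesterol synthesis also turned with piglet 6. All 15 genes of the list were lower after maternal LPS, with a median of -0.19, yet without piglet 6 only 5 of 15 were lower and the median was 0.07. The list means per piglet were 0.22, 0.22 and -0.11 after saline and -0.62, 0.12 and 0.18 after LPS. Piglets 16 and 17 lay within the saline range. MSMO1, a sterol methyl oxidase named after its values were seen, measured 9.19, 9.50 and 8.91 after saline and 8.12, 9.34 and 9.75 after LPS. Fatty acid synthesis genes had a median of -0.13, and 0.01 without piglet 6, with ELOVL7, a fatty acid elongase, at 0.37. Fatty acid oxidation genes had a median of -0.07, and 0.01 without piglet 6, and eicosanoid genes -0.02 and 0.02.

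Large housekeeping groups had medians within 0.11 of 0 with all 6 piglets. Cytosolic ribosomal proteins were positive for 30 of 36 genes with a median of 0.09, which was 0.08 with 25 positive without piglet 6. That list was positive for 23 with a median of 0.01 when saline piglet 8 was left out, and its mean in piglet 8 was -0.15, against 0.01 to 0.07 in the other 5. Respiratory chain and ATP synthase subunits were lower for 35 of 49 (median -0.08, and -0.02 without piglet 17), and proteasome subunits for 20 of 29 (median -0.08, and -0.02 without piglet 8). Heat shock proteins were lower for 14 of 19 with a median of -0.08; without piglet 6 it was -0.27 with 15 lower. Cell proliferation genes were lower for 8 of 11, with a median of -0.11, or 0.00 without piglet 17. They included the spindle factor TPX2 (-0.54) and the condensin subunit NCAPG (-0.45, with 2 group means under the filter level). Among antioxidant genes, the quinone reductase NQO1 differed by -0.39, and the list's median was -0.03.

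Of the other lists, hypoxia and glycolysis genes had a median of 0.04, the unfolded protein response -0.04, growth factors and imprinted genes -0.05, DNA methylation and chromatin enzymes -0.07 and the circadian clock 0.00. Endothelial genes had a median of -0.03, with ANGPT2, a destabilising vessel factor, at 0.53 but with 3 group means under the filter level. Smooth muscle and pericyte genes had a median of 0.12, which was -0.07 without piglet 17, and adipocyte genes 0.16, which was -0.02 without piglet 6. The median was -0.04 for nerve and Schwann cell genes, -0.08 for red blood cell genes and -0.05 for keratin genes. Of the 38 lists, 22 kept the sign of their median without piglet 6, and 12 kept it whichever of the 6 piglets was left out, macrophage, complement and interferon-stimulated genes among them.

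**Figure D4:**
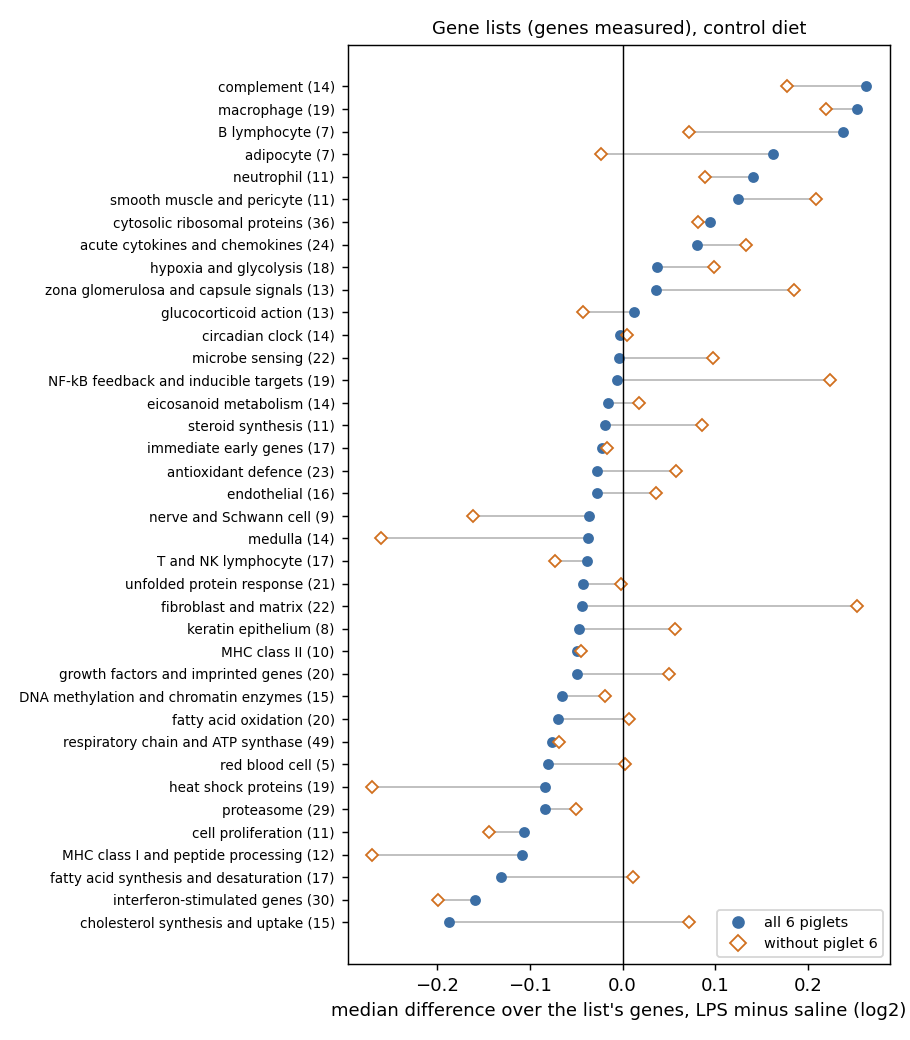
Median log2 difference, maternal LPS minus saline (horizontal axis), over the genes of each list in the control diet, with all 6 piglets (filled circles) and without piglet 6 (open diamonds); the number of genes measured is in brackets. Macrophage and complement genes stay above 0 and interferon-stimulated genes below 0 in both, while cholesterol synthesis and fibroblast genes cross 0.

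Finally, the control diet differences were set against those of fish oil and microalgae offspring, which share no array with them. No probe set passed an adjusted p of 0.05 for the difference between control and fish oil effects, with 545 at an unadjusted p under 0.05 (2.64%), or for control against microalgae, with 1118 (5.41%), by limma. Across the 20668 probe sets, the control diet differences correlated with the fish oil differences at r = 0.03, with the same sign for 51.4%. For microalgae, r was 0.09 and 53.4% had the same sign. The 10 positive and 9 negative genes named at an unadjusted p under 0.01 in the control diet were then compared. Of the 10, 4 were also positive under fish oil and 5 under microalgae. Of the 9, 4 were negative under each. USP21 was close to its control diet value under fish oil (-0.56 and -0.59), as was RPRM under microalgae (0.65 and 0.63). Of the 19, 2 had an unadjusted p under 0.05 in limma under fish oil, USP21 and, with the opposite sign, SBSPON. Another 2 did under microalgae, RPRM and, with the opposite sign, SLA-DRB1. The 19 genes were chosen for their difference in the control diet, which by itself favours a smaller difference elsewhere. The 14 of 19 with an unadjusted interaction p under 0.05 against fish oil, and the 11 of 19 against microalgae, are therefore a description.

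Both contrasts between diets hold the same control diet difference, so a large one by itself favours a small p in both. GP91-PHOX was among the 5 symbols with the smallest interaction p against both diets. It differed by 0.83 in the control diet, -0.19 under fish oil and -0.47 under microalgae. LY96 was similar, at 0.62, -0.51 and -0.70. Not all named list members reversed. POSTN differed by -2.04 in the control diet, 0.28 under fish oil and -2.19 under microalgae, and ANGPT2 by 0.53, 0.72 and 0.24. SBSPON differed by -0.60 in the control diet and 0.42 under fish oil, LOC100154752 by 0.53 and -0.51, and LOC100736818 by -0.37 and 0.53. Against microalgae the smallest interaction p belonged to MGARP, a mitochondrial protein of steroid-making tissues. It measured 7.84, 7.37 and 7.75 after saline and 8.15, 8.42 and 8.07 after LPS in the control diet, without overlap, and its difference was 0.56 there and -0.78 under microalgae. CHKA, a choline kinase, differed by -0.23 and 1.33, FAM129A by 0.44 and -1.29, and C13H21orf91 by 0.22 and -1.25, so these 3 rested mostly on the microalgae piglets, 2 of which had followed maternal LPS.

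The macrophage and complement medians had the opposite sign under fish oil and microalgae, while the interferon-stimulated median was negative in each diet. The macrophage median was 0.25 in the control diet, -0.14 under fish oil and -0.08 under microalgae, and 3 of 19 members had an unadjusted interaction p under 0.05 against each diet, beside 2.64% of all probe sets for fish oil and 5.41% for microalgae. Complement genes had medians of 0.26, -0.07 and -0.15. The interferon-stimulated median was -0.16 in the control diet, -0.95 under fish oil and -0.20 under microalgae; 12 of 30 members had an unadjusted interaction p under 0.05 against fish oil (2.64% of all probe sets) and 0 against microalgae (5.41%), and none in either passed after adjustment by limma. Piglet 24, of the fish oil LPS group, also had an array that stood apart, with a median correlation of 0.928 and an interquartile range of 2.27.

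**Figure D5:**
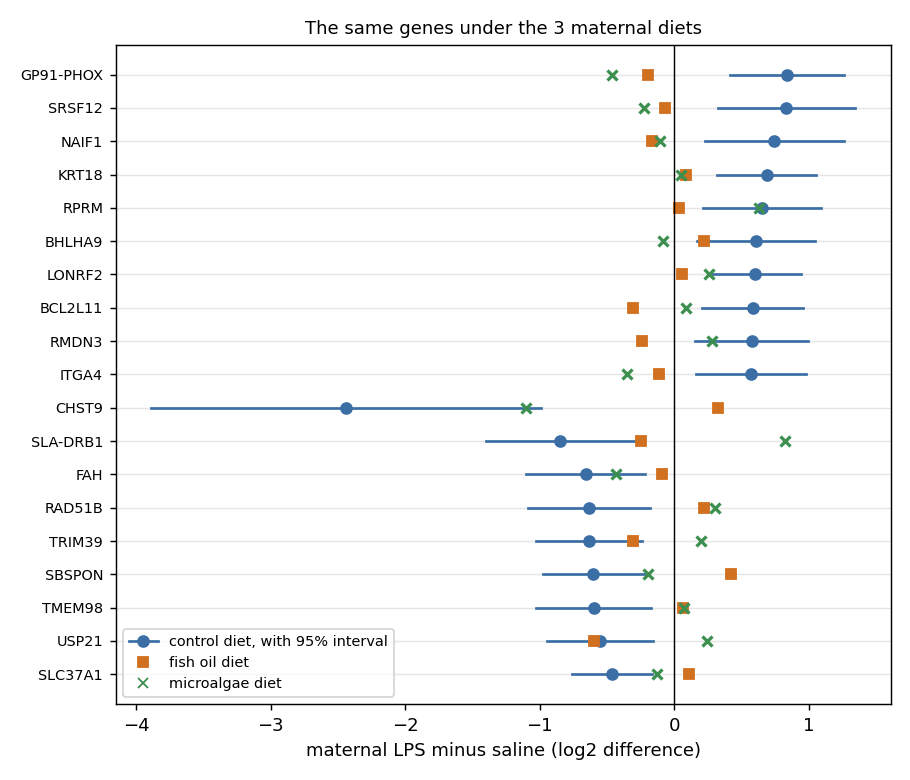
Log2 difference, maternal LPS minus saline (horizontal axis), of 19 genes in the control diet (circles, with 95% intervals), under fish oil (squares) and under microalgae (crosses). They are the genes with the largest control diet differences at an unadjusted p under 0.01. The genes were chosen on the control diet values; GP91-PHOX and SLA-DRB1 have microalgae values of the opposite sign, -0.47 and 0.83.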

How the data were processed

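The deposited table held log2 signals of 1-colour Affymetrix arrays, 1 column per piglet; per the submitters' processing notes the authors used Transcriptome Analysis Console 4.0. Base 2 was inferred from the range, 0.263 to 13.5. The sources used here do not name the normalization; no further scaling was applied to the deposited values. Of 27558 probe sets, 13157 had 1 gene symbol (7 updated), 523 several and 13878 none. Control probe sets could not be told from the rest, and 801 tested probe sets had the same values as another. The 6890 probe sets with a mean under 3.23 were left out.

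One mean per diet and challenge group was fitted to all 19 arrays with limma 3.58.1 under R 4.3.3, the variance prior following intensity, which gave 13 residual and 4.62 prior degrees of freedom. P-values are two-sided and were adjusted by Benjamini-Hochberg over 20668 probe sets. With 3 piglets against 3, an exact permutation test of one gene cannot go below 0.1 and was not used. Lists took 1 probe set per symbol, the one with the highest mean. The comparison, the lists and the genes were chosen with earlier results of these data known. Named were the 10 largest differences per direction at an unadjusted p under 0.01, up to 3 members per list at a p under 0.05, 16 preset genes and the 5 smallest p per contrast between diets. Alternatives changed the filter, scaling, weights, variance prior, covariates and samples, and the procedure was tested on simulated data.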

Additional observations from a re-analysis of the deposited data

Results flagged for a closer look

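For 6 of the named genes all LPS piglets lay on one side of all saline piglets in the control diet and on the opposite side under another diet, and the difference of the effects had an unadjusted p under 0.05 in limma. The genes were named for a large difference in the control diet or a small p between diets, so this separation is partly fixed by the choice and is a description. Of all 20668 probe sets, 18 (0.0871%) separated in opposite directions in the control and fish oil diets and 144 (0.697%) in the control and microalgae diets. No adjusted p passed, and each adjusted p was 0.813 or higher. GP91-PHOX differed by 1.30 between the control and microalgae effects (unadjusted p = 0.000446), SLA-DRB1 by -1.68 (0.000493), MGARP by 1.34 (0.000114) and BHLHA9 by 0.70 (0.0391). Between the control and fish oil effects, SBSPON differed by -1.02 (0.000417) and LOC100736818 by -0.90 (0.00151). The microalgae effect rests on 2 piglets after maternal LPS.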

How the results depend on the processing

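The count of probe sets at an adjusted p under 0.05 stayed 0 under each alternative run for maternal LPS and, except with control diet arrays only, where they have no value, for both contrasts between diets; the smallest adjusted p for maternal LPS was 0.206, without piglet 14. The unadjusted counts moved more: higher after LPS, 203 became 351 with no filter, 86 with the lowest 50% left out and 464 with array weights. Lower after LPS, 156 became 94 with the lowest 50% left out, 460 with array weights, 290 with the interquartile range as a covariate and 253 without piglets 6 and 24 (chosen after seeing the data), and 160 to 263 with 1 piglet left out, the highest without piglet 16. For control minus fish oil, 545 became 309 with the lowest 50% left out and 845 with array weights. For control minus microalgae, 1118 became 2329 with array weights, 2422 without piglets 6 and 24, and 683 (without piglet 8) to 1851 (without piglet 6) with 1 piglet left out. The cause was not tested. The share of positive differences ran from 46.4% with median centring to 52.1% with no filter. The 19 genes named at an unadjusted p under 0.01 kept their direction in each alternative that tested them, which their choice on the same arrays favours. Lists of fewer than 5 members after leaving out the lowest 50% were not described there, and 33 of 38 remained. No paired analysis was possible because the piglet numbers are not shared between groups.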
